A study of Mus musculus with 26 samples.

Results

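Cultured cell lines immortalized from long-term haematopoietic stem cells (LT-HSC) and labelled as without doxycycline (dox) at 72 h were compared with LT-HSC taken straight from bone marrow. Arrays were assigned by their sample titles, and 7 of the 26 arrays of the series were used, namely 3 arrays of the lines B6-2, B6-3 and B6-1, and 4 arrays of sorted wild-type LT-HSC. All cells were of mouse strain C57BL/6. The sorted LT-HSC were isolated from bone marrow by flow cytometry, and the lines were established in vitro and harvested from liquid medium. The series concerns MLL-AF9, a fusion of KMT2A (MLL) with MLLT3 (AF9) that causes acute myeloid leukaemia. In such lines dox is known to switch the fusion on, and the comparison asks what remains different from the cell of origin when dox is absent. The sources used here do not say at which step the count of hours began.

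An LT-HSC is a rare, mostly resting marrow cell that can renew itself and restore all blood lineages. Transcription factors such as Mecom, Meis1 and Hlf and a dormancy programme maintain that state, and both are switched off as the cell passes through multipotent progenitors to the granulocyte-macrophage progenitor (GMP), which fills its granules with proteases and gives rise to neutrophils and monocytes. MLL fusions keep Hoxa genes and Meis1 on in cells that would otherwise lose them.

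Values are log2 probe set signals as deposited, given in the order sorted replicates 1 to 4 and lines B6-2, B6-3 and B6-1. A difference is line minus sorted cell on the log2 scale with the standard error (SE) of a limma fit over all 26 arrays, and genes were called where the 2-sided p, adjusted by Benjamini-Hochberg over 19937 genes, was under 0.05. Across all probe sets, sorted arrays correlated with one another at r between 0.982 and 0.985 and the line arrays at 0.979 to 0.988. A line array correlated with a sorted LT-HSC array at 0.935 to 0.949. With arrays of sorted GMP the same line arrays correlated at 0.961 to 0.969. The number of arrays limits the precision. The labels call the arrays of both groups biological replicates but do not state separate animals for the sorted ones. The p-values therefore reflect the spread among these 7 arrays and the rest of the fit and no more. Sorting, culture, immortalization and any difference in handling all separate the 2 groups in the same way and cannot be told apart.

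Markers of LT-HSC were lower in the lines, and markers of GMP, neutrophils, monocytes and mast cells were higher. Of all genes, 6973 were called (35.0%), 3585 higher in the lines (18.0%) and 3388 lower (17.0%). With at least a 2-fold difference, 831 were higher (4.17%) and 606 lower (3.04%), and in 34.1% of genes the arrays of the groups did not overlap. The median difference over all genes was 0.009. All 6 measured LT-HSC marker genes were lower, their mean level falling from between 7.60 and 7.72 in sorted arrays to between 4.69 and 4.92 in the lines, and none of the 6 stayed above the median of all probe sets (5.86). Markers of GMP (5 of 5), neutrophils (6 of 6), monocytes (6 of 6) and mast cells or basophils (5 of 5) were all higher. Mean marker levels in the lines reached 4.97 for B cells, 4.77 for T and NK cells and 5.70 for stromal and endothelial cells. None of the 2 B cell markers was called, 1 of 3 T and NK cell markers was higher (Cd3d), and 1 of 4 stromal and endothelial markers was lower. In both groups 2 of those 4 had means higher than the probe set median. In bulk RNA a smaller share of cells of a type and less RNA per cell cannot be told apart. Xist, the RNA that silences an X chromosome, was bright in both groups (11.10 to 11.16 sorted, 10.66 to 10.81 in the lines) and the Y-linked genes Kdm5d and Eif2s3y lay below the median of all probe sets on all 7 arrays.

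The 12 largest decreases ranged from 16.3-fold to 80.7-fold. Bex1, a small adaptor protein, read 9.68, 9.31, 9.70 and 8.83 in sorted LT-HSC and 3.04, 3.00 and 3.1 in the lines, a fall by 6.33 ± 0.30 (80.7-fold, adjusted p = 3.36e-14). Adgrl4, an adhesion receptor of endothelium, read 10.58, 10.80, 10.90 and 10.62 against 5.22, 4.40 and 4.63, and fell by 5.98 ± 0.31 (63.0-fold, adjusted p = 1.16e-13). Myct1, a Myc target found in stem and endothelial cells, went from 10.14, 9.78, 10.14 and 9.81 to 4.69, 4.38 and 5.02 (-5.27 ± 0.30, adjusted p = 6.49e-13). No array of one group reached the other for these genes, and the lines lay below the median of all probe sets in each. Mmrn1, the platelet and endothelial protein multimerin, differed by -4.79 ± 0.09, and the sialomucin gene Emcn by -4.09 ± 0.07. Prkg1, a cyclic GMP dependent kinase, differed by -4.05 ± 0.09, and Rgs1, which shortens G protein signals, by -4.03 ± 0.35.

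The 12 largest increases ranged from 38.4-fold to 56.6-fold. Klk1b11, a kallikrein-type protease, read 3.94, 3.83, 4.07 and 3.76 in sorted LT-HSC and 9.75, 9.83 and 9.60 in the lines (5.82 ± 0.47, 56.6-fold, adjusted p = 3.34e-10). Ccr2, the receptor that draws monocytes to sites of inflammation, read 5.32, 5.85, 4.85 and 4.76 against 10.99, 11.16 and 10.64 (5.73 ± 0.25, 53.2-fold, adjusted p = 5.52e-15). Ms4a3, a membrane protein of GMP, read 5.40, 5.67, 5.13 and 4.39 against 10.89, 10.60 and 10.87 (5.64 ± 0.18, 49.9-fold). In all 3 genes the lines at 72 h were far above every sorted array and close to one another. The 48 h arrays of the lines read lower for Klk1b11, at 7.29, 8.07 and 8.1. Clec4n, a lectin receptor for fungal sugars, rose by 5.45 ± 0.39, the chemokine Ccl6 by 5.42 ± 0.27, the matrix proteoglycan Vcan by 5.41 ± 0.45 and the orphan receptor Gpr141 by 5.54 ± 0.20. Atp8b4, a lipid-transporting ATPase, rose by 5.32 ± 0.11. Stfa3, a cysteine protease inhibitor, had the widest spread: 3.66, 3.42, 3.73 and 3.65 in sorted cells against 11.20, 10.05 and 6.27 in the lines (5.55 ± 1.01, adjusted p = 8.53e-05), and its difference was 3.69 with the 48 h arrays of the lines. Whether the probes of Klk1b11 and Stfa3 separate these genes from their close relatives was not tested.

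**Figure D1:**
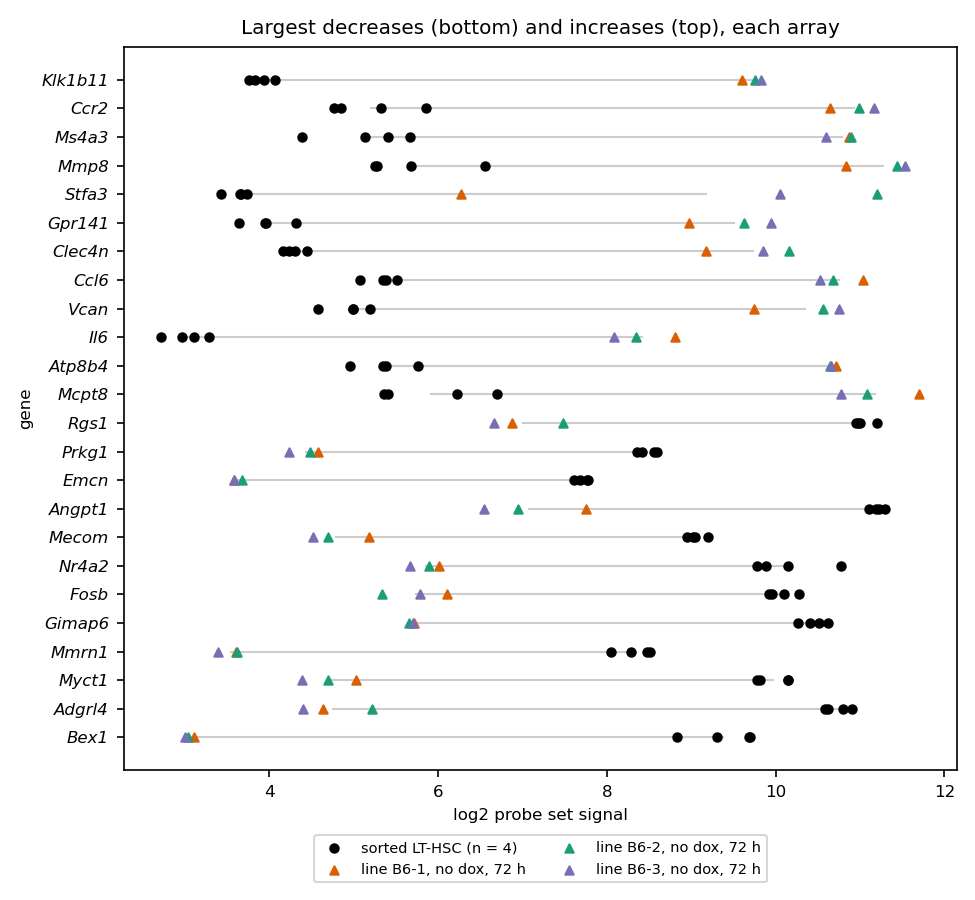
Log2 probe set signal of the 12 genes with the largest increase and the 12 with the largest decrease, as 1 point per array: black circles are the 4 sorted LT-HSC arrays, triangles the 3 lines without dox at 72 h, and the grey bar joins the 2 group means. The groups do not overlap for any of these genes, and Stfa3 in line B6-1 (6.27) lies far from the other lines.

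Members of 40 gene lists covering cell types, pathways and complexes are plotted together before they are taken in turn. The medians ran from -1.38 for the GIMAP genes to 3.22 for the primary granule genes, around a median of 0.009 for all genes. Counts of members called can be set beside the 18.0% of all genes called higher and the 17.0% called lower.

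**Figure D2:**
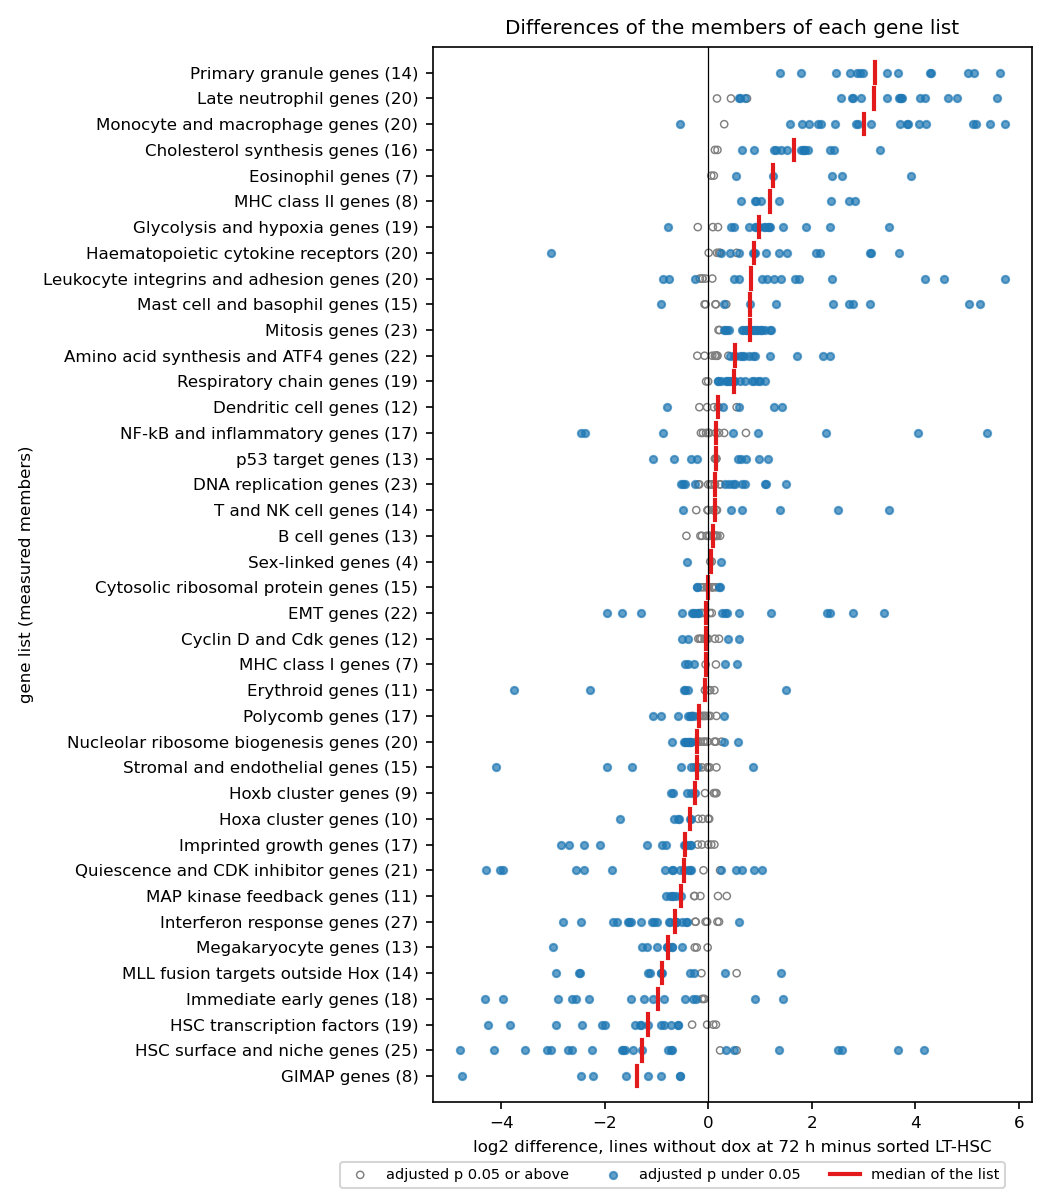
Log2 difference, lines without dox at 72 h minus sorted LT-HSC, of every measured member of each gene list (1 point per gene, filled where the adjusted p was under 0.05), with the list's median as a red bar. Myeloid granule, neutrophil and monocyte genes lie at the right and GIMAP, stem cell, immediate early and interferon genes at the left.

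Transcription factors that maintain stem cells were lower as a group. Of 19 measured, 15 fell and none rose (17.0% and 18.0% of all genes), with a median of -1.16. Mecom, a zinc finger factor needed for stem cell self-renewal, read 9.02, 9.04, 9.20 and 8.95 in sorted cells and 4.69, 4.51 and 5.18 in the lines (-4.26 ± 0.22, adjusted p = 1.84e-13). Its other probe set differed by -2.24, so the direction was shared and the size was not. Hlf, a leucine zipper factor that marks stem cells, went from 9.76, 9.77, 9.72 and 9.32 to 5.87, 5.67 and 5.91 (-3.82 ± 0.10, adjusted p = 7.95e-19). Meis1, the homeobox partner of Hoxa9, went from 10.61, 10.58, 10.83 and 10.82 to 7.59, 7.74 and 8.0 (-2.93 ± 0.17, adjusted p = 8.02e-13). The mean of the lines was below the median of all probe sets for Hlf (5.82) and Mecom (4.79), and above it for Meis1. Zfp521, a zinc finger regulator of early progenitors, fell by 2.44 ± 0.11, the ETS factor Erg by 2.06 ± 0.15 and Msi2, an RNA-binding protein of stem cells, by 2.00 ± 0.12.

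Surface and niche genes went both ways. Of 25 measured, 16 fell and 7 rose, with a median of -1.27. Slamf1 (CD150), used to sort LT-HSC, read 6.44, 6.48, 6.5 and 6.83 against 3.40, 3.38 and 3.58 (-3.11 ± 0.11, adjusted p = 5.13e-17). Tek, the receptor for angiopoietin, fell by 3.54 ± 0.13, and its ligand Angpt1 went from 11.30, 11.11, 11.23 and 11.19 to 6.95, 6.54 and 7.75 (-4.13 ± 0.46). Cd48, which is absent from LT-HSC and present on later progenitors, moved the other way, from 5.11, 5.52, 5.42 and 4.51 to 9.51, 9.42 and 9.0 (4.17 ± 0.17, adjusted p = 8.83e-16). Fcgr3, part of the Fc receptor used to sort GMP, rose by 3.67 ± 0.12. Kit, the stem cell factor receptor shared by LT-HSC and GMP, read 10.35, 10.34, 10.41 and 10.43 against 7.21, 7.11 and 7.70 (-3.04 ± 0.16, adjusted p = 2.58e-13), below the sorted GMP mean of 8.98 as well.

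Genes tied to dormancy were more often lower than higher, with 14 of 21 quiescence and CDK inhibitor genes falling and 5 rising (median -0.47). The nuclear receptor Nr4a2 read 10.78, 9.88, 9.78 and 10.14 in sorted cells against 5.89, 5.67 and 6.01 (-4.29 ± 0.16, adjusted p = 4.49e-16). Its relative Nr4a1 read 9.83, 9.16, 9.63 and 9.21 against 5.46, 5.51 and 5.52 (-3.96 ± 0.12), and the antiproliferative gene Btg2 fell by 1.85 ± 0.32. No array overlapped between the groups in these 3 genes. Cdkn1b, the CDK inhibitor p27, moved up by 0.89 by its brighter probe set and by 0.05 by the other, so the probe sets disagreed. Of other CDK inhibitors, Cdkn2c rose by 1.04 ± 0.19, Cdkn2b by 0.66 ± 0.16 and Cdkn2d by 0.25 ± 0.09. Cdkn1c fell by 0.47 ± 0.1, and Cdkn2a (0.23 ± 0.09) was not called. Imprinted growth genes, several of which restrain stem cell growth, held 12 lower and no higher member among 17 measured (median -0.45). Grb10, an adaptor that dampens insulin signalling, went from 8.03, 8.32, 8.38 and 8.32 to 5.35, 5.44 and 5.49 (-2.84 ± 0.17, adjusted p = 1.48e-12). Ndn, a growth suppressor, fell by 2.40 ± 0.15 and the maternally expressed RNA Meg3 by 0.90 ± 0.09.

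All 8 GIMAP genes, GTPases that support survival of stem cells and lymphocytes, were lower (median -1.38). Gimap6 read 10.51, 10.26, 10.62 and 10.41 in sorted LT-HSC and 5.65, 5.70 and 5.71 in the lines (-4.76 ± 0.12, 27.1-fold, adjusted p = 4.7e-19). Gimap1 and Gimap8 fell by 2.23 ± 0.20 and 1.58 ± 0.12. Gimap5 varied widely in the sorted cells (5.93, 5.49, 7.56 and 7.74), yet every line lay lower (4.06, 4.14 and 4.45). Gimap7 and Gimap9 differed by -0.54 each and their arrays overlapped between the groups. The call for Gimap9 (adjusted p = 0.0338) was lost without any one of sorted replicates 3 and 4, B6-2 and B6-3, where the limma p was 0.0678 to 0.293, and its difference was -0.03 with the 48 h arrays of the lines. The 8 genes lie together on chromosome 6 in mice, and the sorted replicates 3 and 4 had higher signals than replicates 1 and 2 for Gimap1, Gimap4, Gimap5 and Gimap9.

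Hoxa genes and other targets of MLL fusions were below the sorted level without dox. Of 10 measured Hoxa genes, 6 fell and none rose (median -0.35). Hoxa5 read 8.20, 7.69, 8.04 and 8.09 in sorted cells and 6.42, 6.38 and 6.10 in the lines (-1.71 ± 0.18, adjusted p = 3.38e-08). Hoxa9, the main Hox gene of MLL leukaemia, read 7.21, 7.19, 7.17 and 7.27 against 6.52, 6.56 and 6.56 (-0.66 ± 0.09, adjusted p = 9.96e-07), and Hoxa10 fell by 0.57 ± 0.11. Arrays of the same lines with dox at 72 h gave group means of 7.55 for Hoxa5, 7.40 for Hoxa9 and 7.46 for Hoxa10. These dox arrays are of the same lines, and the levels are given side by side without a test. Hoxb genes fell in 5 of 9, led by Hoxb5 (-0.71 ± 0.15) and Hoxb4 (-0.67 ± 0.12), and the means with dox were 4.77 and 6.44 against 4.91 and 6.26 without. The Hoxb count was 3 without B6-2 and 3 in a fit of only the groups compared.

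Outside the Hox clusters, 10 of 14 measured MLL fusion targets fell and 2 rose (median -0.90). Eya1, a phosphatase and transcriptional coactivator, went from 8.58, 8.24, 8.76 and 8.22 to 6.27, 5.55 and 6.05 (-2.49 ± 0.28), and the transcription factor Dach1 from 8.43, 9.14, 9.06 and 8.67 to 6.53, 6.10 and 6.43 (-2.47 ± 0.32). Lmo2, a bridge protein of blood transcription complexes, fell by 1.16 ± 0.09 and the MADS factor Mef2c by 1.13 ± 0.12. Igf2bp3, an RNA-binding protein of fetal cells, went against them, from 5.58, 5.26, 5.32 and 5.26 to 7.05, 7.32 and 5.94 (1.41 ± 0.28, adjusted p = 0.000188). Of the genes that make up the fusion, mouse Kmt2a read 10.10, 9.94, 10.09 and 10.10 against 8.62, 8.70 and 8.56 (-1.43 ± 0.08, adjusted p = 2.43e-13), and Mllt3, itself a regulator of stem cell maintenance, read 10.45, 10.20, 10.47 and 10.31 against 7.65, 7.95 and 8.06 (-2.47 ± 0.12, adjusted p = 2.48e-14). Whether the probes of these mouse genes detect a human fusion was not tested.

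Hprt, the purine salvage enzyme, read 9.25, 9.25, 9.84 and 9.29 in sorted LT-HSC and 7.03, 7.61 and 6.82 in the lines without dox (-2.26 ± 0.16, adjusted p = 6e-11). The same lines had a mean of 10.68 with dox at 72 h, above both. In GMP-derived lines without dox, Hprt lay 2.19 below sorted GMP on the log2 scale (difference -2.19).

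**Figure D3:**
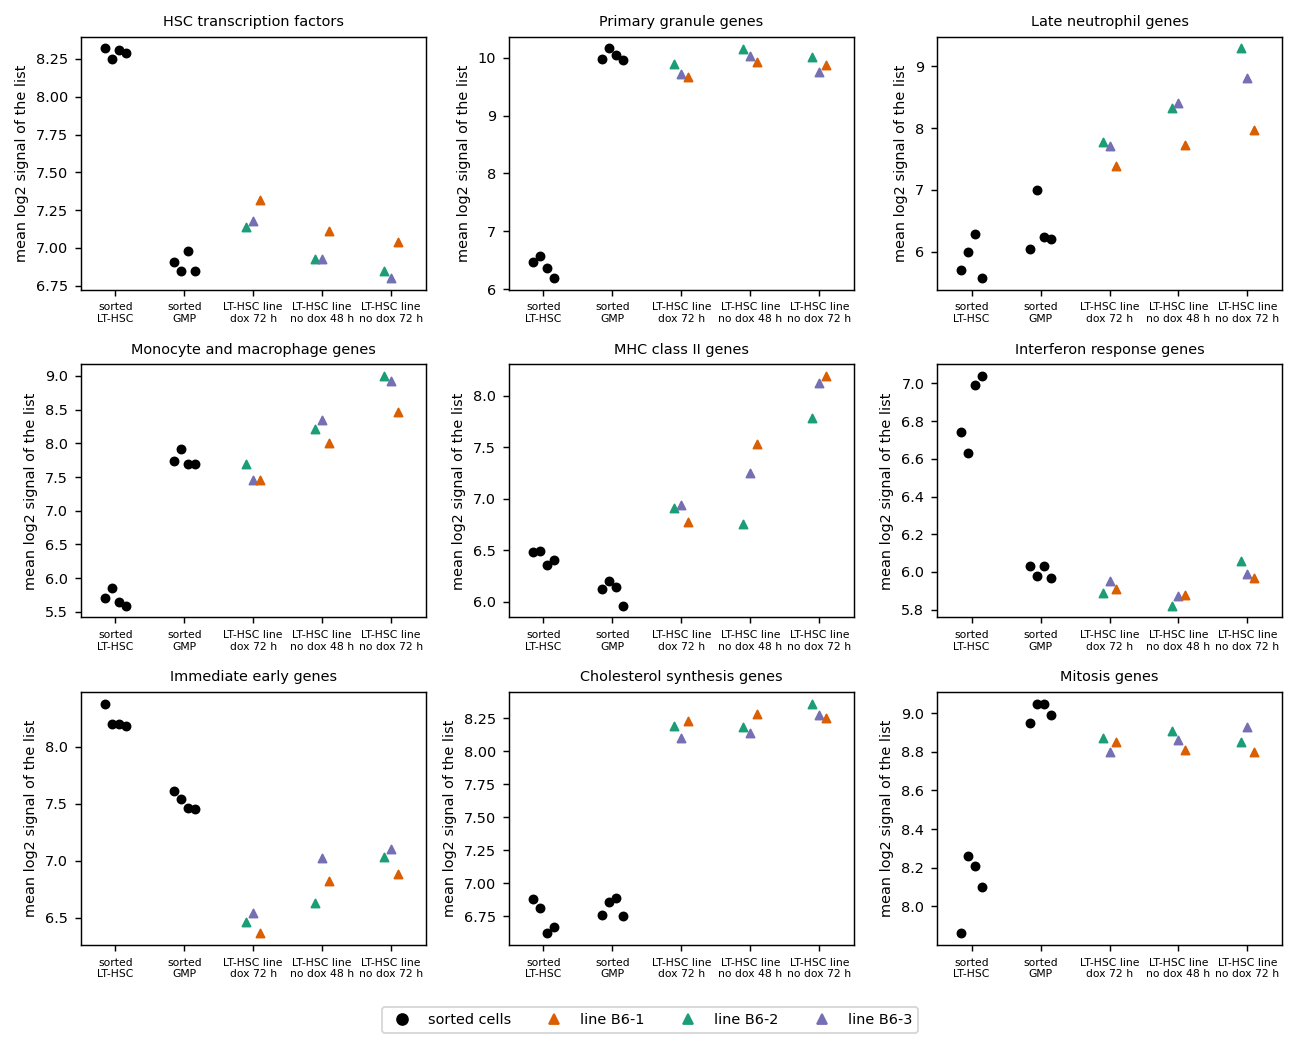
Mean log2 signal of 9 gene lists on each array of sorted LT-HSC, sorted GMP and the lines of LT-HSC origin, with dox (72 h) and without it (48 h and 72 h); circles are sorted cells and triangles the lines by name. The vertical axes differ between panels and do not start at 0. In primary granule genes the lines at 72 h lie between 9.67 and 10.01 and sorted GMP between 9.96 and 10.16, while in late neutrophil, monocyte and MHC class II genes the lines without dox at 72 h lie above every sorted array.

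Granule genes gave the widest list median. All 14 measured members of the primary granule list, which is not limited to granule proteins, were higher (18.0% of all genes). The median was 3.22 and no array overlapped in any. Ctsg, which encodes cathepsin G, read 6.52, 5.52, 5.58 and 5.51 in sorted LT-HSC and 10.99, 10.60 and 11.15 in the lines (5.13 ± 0.17, adjusted p = 4.13e-17). Clec12a, an inhibitory lectin of myeloid cells, read 4.31, 4.97, 4.83 and 4.49 against 9.81, 9.63 and 9.53 (5.01 ± 0.13, adjusted p = 3.89e-19). Cst7, a cathepsin inhibitor, rose by 4.31 ± 0.14 and the haemoglobin scavenger Hp by 4.28 ± 0.19. The list's mean level was 9.75 to 10.01 in the lines, 9.67 to 9.89 in the same lines with dox and 9.96 to 10.16 in sorted GMP, against 6.19 to 6.58 in sorted LT-HSC.

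Late neutrophil genes, which include products of the granules made after the GMP stage, were higher in 17 of 20 (median 3.20). Mmp8, neutrophil collagenase, read 5.27, 5.68, 6.56 and 5.25 against 11.44, 11.53 and 10.83 (5.58 ± 0.45, adjusted p = 3.75e-10). Chil3, a chitinase-like protein, rose by 4.80 ± 0.33 and Ifitm6 by 4.64 ± 0.35. Ly6g, the surface marker of mouse neutrophils, read 4.12, 4.61, 4.42 and 4.11 against 9.16, 7.91 and 8.18 (4.10 ± 0.37, adjusted p = 2.21e-09). The difference of Ly6g was 2.61 with the 48 h arrays of the lines. Lcn2, which sequesters bacterial iron carriers, read 5.31, 5.71, 5.87 and 5.35 against 10.15, 9.65 and 8.13 (3.75 ± 0.33). The lines were above all sorted arrays for each, and B6-1 was the lowest line for Mmp8 and Lcn2. The list's mean was 7.97 to 9.29 without dox at 72 h, 7.38 to 7.78 with dox and 6.04 to 7.0 in sorted GMP.

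Monocyte and macrophage genes were higher in 18 of 20 and lower in 1 (median 3.02). F13a1, a coagulation factor subunit of monocytes, read 5.27, 5.73, 5.09 and 5.16 in sorted LT-HSC and 10.64, 10.64 and 10.21 in the lines (5.18 ± 0.30, adjusted p = 7.52e-13). Mrc1, the mannose receptor of macrophages, read 4.98, 5.21, 5.56 and 5.02 against 10.32, 10.18 and 10.43 (5.11 ± 0.45, adjusted p = 1.84e-09). Adgre1, the usual marker of mouse macrophages, rose by 4.08 ± 0.27 and the lectin receptor Clec4a2 by 4.20 ± 0.23. With dox the mean of Mrc1 was 6.62, that of Clec4n 6.25 and that of Vcan 6.81, against 10.31, 9.73 and 10.35 without dox. For F13a1 the corresponding means were 9.23 and 10.50.

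All 8 measured MHC class II genes, which present antigen to T cells, were higher (median 1.19) with no overlap. Cd74, the invariant chain, read 5.87, 5.72, 5.88 and 5.55 against 8.12, 8.87 and 8.79 (2.84 ± 0.28, adjusted p = 8.99e-09). H2-Aa read 6.71, 6.43, 6.52 and 6.74 against 9.03, 9.37 and 9.59 (2.73 ± 0.21, adjusted p = 1.03e-10), and H2-Ab1 rose by 2.37 ± 0.23. Ciita, the coactivator that controls these genes, read 5.65, 5.64, 5.33 and 5.57 against 5.87, 6.16 and 6.53 (0.64 ± 0.11). With the 48 h arrays of the lines the differences were smaller, at 1.43 for Cd74, 1.39 for H2-Aa, 0.96 for H2-Ab1 and 0.18 for Ciita, which was then not called (adjusted p = 0.235, limma). Group means with dox were 6.18 for Cd74, 6.93 for H2-Aa and 5.60 for Ciita, and sorted GMP gave 5.25, 5.28 and 5.47. Defining genes of dendritic cells did not all follow: 4 of 12 rose and 1 fell (18.0% and 17.0% of all genes, list median 0.19). Itgax (CD11c) rose by 1.28 ± 0.16 and Irf4 by 1.43 ± 0.19, with 0.74 and 0.90 at 48 h, while Clec9a, a receptor of cross-presenting dendritic cells, fell by 0.80 ± 0.13. Zbtb46, the factor specific to classical dendritic cells, differed by -0.02 ± 0.10 and Xcr1 by 0.19 ± 0.09. MHC class I pathway genes split, with 2 higher and 3 lower of 7 (18.0% and 17.0% of all genes). They ran from Psmb8 (0.56 ± 0.07) to Nlrc5 (-0.45 ± 0.09), the latter read by many probe sets that disagreed.

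Mast cell and basophil genes were higher in 9 of 15 and lower in 1 (median 0.81). Mcpt8, the protease of basophils, read 5.36, 6.70, 6.22 and 5.40 in sorted LT-HSC and 11.08, 10.77 and 11.70 in the lines (5.26 ± 0.49, adjusted p = 4.51e-09). Cpa3, the mast cell carboxypeptidase, read 4.76, 5.08, 5.24 and 4.64 against 9.73, 9.62 and 10.53 (5.03 ± 0.69, adjusted p = 1.88e-06). Ms4a2, the beta chain of the IgE receptor, rose by 2.73 ± 0.43, and Hdc, which makes histamine, by 2.41 ± 0.36. B6-1 had the highest line value for Mcpt8, Cpa3, Ms4a2 and Hdc. Eosinophil genes rose in 5 of 7, and Prg2, the granule major basic protein, read 7.66, 7.25, 4.89 and 5.81 against a mean of 10.32 in the lines (3.92 ± 0.80, adjusted p = 0.000314). Its sorted arrays spread widely, and all lay below the lines. Ear6, an eosinophil ribonuclease with close relatives, rose by 2.39 ± 0.44, and Ccr3, the eosinophil eotaxin receptor, differed by 0.11 ± 0.09.

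Megakaryocyte genes fell in 10 of 13 and rose in none (median -0.78): Pf4, platelet factor 4, read 10.68, 10.70, 10.09 and 10.52 against 7.89, 6.19 and 8.43 (-2.99 ± 0.45, adjusted p = 7.55e-06) and Vwf, the adhesive protein of platelets and of platelet-biased stem cells, fell by 1.27 ± 0.12. Among 11 erythroid genes 5 fell and 1 rose. Car2, a carbonic anhydrase, went from 9.89, 9.93, 10.20 and 9.98 to 6.14, 5.81 and 6.78 (-3.76 ± 0.27, adjusted p = 5.59e-11), and Tfrc, the transferrin receptor that all dividing cells use, rose by 1.51 ± 0.11. No B cell gene of 13 was called by limma, where 1 had an unadjusted p under 0.05. Vpreb1, a part of the pre-B receptor, read 7.30, 7.59, 7.07 and 8.15 against 6.66, 8.12 and 6.55. T and NK cell genes rose in 5 of 14 (18.0% of all genes) and fell in 1. The increases included Gzmb (3.50 ± 0.58), a protease also made by myeloid and mast cells, Thy1 (2.50 ± 0.57) and Nkg7 (1.39 ± 0.26), a protein of cytotoxic granules, which differed by 2.25 at 48 h. Cd3d, a defining T cell gene, was also called, at signals below the median of all probe sets in both groups (3.83 to 4.17 and 4.43 to 4.51), and with the 48 h arrays its difference was -0.01. Of 15 stromal and endothelial genes 6 fell and 1 rose (17.0% and 18.0% of all genes). Eng, an endothelial receptor that LT-HSC also carry, fell by 1.47 ± 0.13, the matrix protein Sparc, at 8.68, 6.33, 7.86 and 8.13 in sorted cells, fell by 1.95 ± 0.43, and Pecam1 rose by 0.86 ± 0.17. The part of other cell types in these results was not tested.

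Genes of division were raised in mitosis and mixed in replication. Mitosis genes rose in 21 of 23 and fell in none (median 0.80). Bub1, a checkpoint kinase, read 8.46, 8.42, 8.54 and 8.59 in sorted cells and 9.69, 9.71 and 9.70 in the lines (1.20 ± 0.06, adjusted p = 1.7e-13). Aurka, a spindle kinase, read 6.98, 7.60, 7.74 and 7.62 against 8.83, 8.74 and 8.56 (1.22 ± 0.12, adjusted p = 5.61e-09), and Cdk1, which drives entry into mitosis, rose by 1.00 ± 0.09. The list's mean level was 7.86 to 8.26 in sorted LT-HSC, 8.80 to 8.93 in the lines and 8.95 to 9.05 in sorted GMP. Replication genes rose in 9 of 23 and fell in 4 (median 0.13): Rrm2, a subunit of the enzyme that makes deoxynucleotides, rose by 1.5 ± 0.13 and Ccne1, cyclin E, by 1.11 ± 0.10, while the primase Prim1 fell by 0.52 ± 0.11, a call that was lost with the 48 h arrays of the lines (-0.21). With the 48 h arrays the replication count was 15 higher and 0 lower. D-type cyclins and their kinases were called in 4 of 12, 2 in each direction, beside 35.0% of all genes. Cdk6 differed by -0.13 ± 0.11, Cdk4 by 0.00 ± 0.07 and Ccnd2 by -0.19 ± 0.13, and these 3 were not called.

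Genes of ribosome assembly in the nucleolus went down rather than up. Of 20, 9 fell and 2 rose (median -0.21). Nop58, which guides ribosomal RNA methylation, read 10.75, 10.74, 10.84 and 10.63 against a mean of 10.05 in the lines (-0.69 ± 0.08, adjusted p = 3.28e-07), and Ncl, nucleolin, read 11.59, 11.45, 11.64 and 11.66 against 11.05, 11.18 and 11.18 (-0.45 ± 0.07). Pes1, needed for the large subunit, went the other way (0.57 ± 0.10). With the 48 h arrays of the lines 3 nucleolar genes in place of 9 fell, and the differences were -0.39 for Nop58 and -0.27 for Ncl. Cytosolic ribosomal proteins were called in 4 of 15, 2 each way, beside 35.0% of all genes, with differences within 0.23 of 0 for the called genes Rps19 (0.23), Rpl19 (0.21), Rpl10a (-0.22) and Rplp0 (-0.22). The next brightest probe sets of Rpl10a and Rplp0 differed by 0.03 and 0.07 and were not called. Other probe sets of Rpl19, at lower signals, were all higher in the lines, by 0.42 to 1.17, and that with 0.44 was not called. The 4 called genes lost their calls in a limma fit of only the groups compared (adjusted p = 0.0914 to 0.118). In the limma fit Rps19 lost its call without B6-2 (adjusted p = 0.0711) and Rplp0 without B6-1 (0.0904).

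Respiratory chain genes rose in 17 of 19 and fell in none (median 0.49). Ndufb8, a subunit of complex I, read 8.56, 8.47, 8.38 and 8.35 in sorted LT-HSC against 9.54, 9.61 and 9.48 (1.10 ± 0.09, adjusted p = 2.19e-10). Sdhb, of complex II, rose by 0.85 ± 0.10. Atp5g1, of the ATP synthase, rose by 0.97 with one probe set and differed by -0.08 with the other. The arrays of the groups did not overlap in 17 of the 19, beside 34.1% of all genes. With the replicate block and only the groups compared, 10 were called higher in place of 17.

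Glycolysis and hypoxia genes rose in 15 of 19 and fell in 1 (median 0.99). Bnip3, a mitophagy receptor induced by hypoxia, read 6.82, 7.09, 7.05 and 6.49 in sorted cells and 10.40, 10.44 and 10.22 in the lines (3.49 ± 0.28, adjusted p = 4.13e-10), and a further probe set of the gene differed by 2.72. Egln3, an oxygen-sensing hydroxylase that is itself a target of hypoxia-inducible factor, read 7.78, 6.99, 7.34 and 7.13 against 9.66, 9.54 and 9.77 (2.35 ± 0.23, adjusted p = 1.27e-08). Aldoa, aldolase, rose by 1.89 ± 0.10 and Pgk1, phosphoglycerate kinase, by 1.20 ± 0.08. Slc2a1, the glucose transporter GLUT1, rose by 1.15 ± 0.17.

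Hypoxia-inducible factor is known to bind the core ACGTG. The promoter windows of RefSeq (build GRCm38.p6), from 250 bases before to 50 after a gene's start, were searched for that core on both strands. It was present in 12 of the 17 list members with a window (70.6%) and in 3808 of 15613 genes on the array with one (24.4%). A match describes these letters only. The stretches around the match are shown for 4 of the genes above, in the direction of the gene, with every copy of the core or its reverse complement in capitals. They lie at chr7:138909589-138909633 (minus strand) for Bnip3, chr12:54204079-54204123 (minus) for Egln3, chr7:126799356-126799400 (minus) for Aldoa and chrX:106186949-106186993 (plus) for Pgk1.
Bnip3: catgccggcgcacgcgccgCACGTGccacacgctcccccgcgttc
Egln3: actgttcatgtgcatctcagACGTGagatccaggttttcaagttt
Aldoa: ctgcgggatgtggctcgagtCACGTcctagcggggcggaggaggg
Pgk1: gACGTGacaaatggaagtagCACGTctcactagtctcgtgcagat

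Cholesterol synthesis genes rose in 14 of 16 and fell in none (median 1.66). Msmo1, a sterol demethylase, read 6.27, 6.18, 5.47 and 5.77 in sorted LT-HSC and 9.26, 9.35 and 9.12 in the lines (3.32 ± 0.14, adjusted p = 5.85e-15). Fdps, which makes farnesyl diphosphate, read 6.92, 7.0, 6.80 and 6.85 against 9.43, 9.12 and 9.42 (2.43 ± 0.09, adjusted p = 1.66e-16). Hmgcs1, the enzyme before the rate-limiting reductase, rose by 2.35 ± 0.16 and Idi1 by 1.93 ± 0.14. The list's mean was 8.25 to 8.36 in the lines, 8.10 to 8.23 with dox and 6.62 to 6.88 in sorted LT-HSC. The sterol element, searched on both strands as ATCAC and CCAC with 1 base between them, was in none of the 13 members with a window and in 37 genes of 15613 (0.237%).

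Genes for amino acid supply, many of them targets of the stress factor ATF4, rose in 13 of 22 and fell in none (median 0.51). Slc7a11, the cystine importer, read 4.72, 4.44, 4.26 and 4.82 against 6.93, 7.10 and 6.69 (2.35 ± 0.15, adjusted p = 9.69e-12). Asns, asparagine synthetase, read 8.26, 7.98, 7.92 and 8.15 against 9.78, 9.78 and 9.82 (1.71 ± 0.10, adjusted p = 1.63e-12), and the mitochondrial folate enzyme Mthfd2 rose by 2.21 ± 0.13. ATF4 with a C/EBP partner is known to bind amino acid response elements, written TGATGNAAN here and searched on both strands. The element was present in 4 of the 18 members with a window (22.2%) and in 561 of 15613 genes (3.59%). Every copy is in capitals for 2 of these members. Asns, at chr6:7693210-7693252 (minus strand), holds 1 as written, and Slc7a11, at chr3:50443633-50443681 (minus strand), holds 1 as written and then 1 as the reverse complement.
Asns: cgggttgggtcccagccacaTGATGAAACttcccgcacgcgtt
Slc7a11: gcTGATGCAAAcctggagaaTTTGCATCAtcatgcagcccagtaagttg

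Interferon response genes were lower in the lines. Of 27, 20 fell and 1 rose (median -0.65). Rtp4, a chaperone of receptors that is a strong interferon target, read 7.23, 7.41, 8.27 and 8.39 in sorted LT-HSC and 4.99, 5.03 and 5.04 in the lines (-2.80 ± 0.19, adjusted p = 2.55e-11). Oasl2, of the oligoadenylate synthetase family, fell by 2.45 ± 0.16. The RNA sensors Ddx58 (RIG-I) and Ifih1 (MDA5) fell by 1.84 ± 0.11 and 1.54 ± 0.10. Ifit1, which blocks translation of viral RNA, read 6.15, 5.89, 6.78 and 6.66 against 5.02, 4.35 and 4.45 (-1.76 ± 0.18, adjusted p = 1.86e-08). Sorted replicates 3 and 4 were higher than 1 and 2 in Rtp4 and Ifit1, but all lay above the lines. The member that rose was Bst2, tetherin (0.59 ± 0.07). The list's mean was 6.63 to 7.04 in sorted LT-HSC, 5.97 to 6.06 in the lines and 5.97 to 6.03 in sorted GMP.

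The interferon-stimulated response element, searched as 2 copies of TTTC that are 2 bases apart, on both strands, was found in 11 of the 18 members with a promoter window (61.1%) and in 607 of 15613 genes (3.89%). Every copy is printed in capitals for 4 of these 11 members, as an example of the letters. Rtp4 and Oasl2 were not among the 11. Ifit1 lies at chr19:34640784-34640833 (plus strand), Ifit3 at chr19:34583387-34583436 (plus), Rsad2 at chr12:26456543-26456592 (minus) and Irgm1, as 2 overlapping reverse complements, at chr11:48871421-48871464 (minus).
Ifit1: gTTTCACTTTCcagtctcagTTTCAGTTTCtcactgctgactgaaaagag
Ifit3: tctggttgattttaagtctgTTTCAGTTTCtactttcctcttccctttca
Rsad2: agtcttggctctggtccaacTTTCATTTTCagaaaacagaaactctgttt
Irgm1: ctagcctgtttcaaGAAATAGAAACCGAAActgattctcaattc

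Ifit3, a partner of Ifit1, read 4.46, 4.48, 5.54 and 6.39 against 4.13, 3.67 and 3.98 (-1.29 ± 0.28, adjusted p = 0.000613). Rsad2 (viperin), an antiviral enzyme, read 6.19, 5.84, 6.02 and 6.18 against 4.96, 4.88 and 5.06 (-1.09 ± 0.10, adjusted p = 2.06e-09), and the GTPase Irgm1 fell by 1.05 ± 0.13. The element was also present in Bst2, the member that rose.

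Immediate early genes, which answer within minutes to stimulation, fell in 13 of 18 and rose in 2 (median -0.96). Fosb read 10.28, 9.92, 9.96 and 10.10 in sorted cells and 5.33, 5.78 and 6.10 in the lines (-4.32 ± 0.17, adjusted p = 7.09e-16). Fos, its relative in the AP-1 complex, read 8.59, 8.02, 8.34 and 8.19 against 5.84, 5.79 and 5.28 (-2.64 ± 0.20, adjusted p = 8.07e-11). The phosphatase gene Dusp1 fell by 2.90 ± 0.21, the zinc finger factor Egr1 fell by 2.55 ± 0.27 and Jun fell by 2.31 ± 0.27. The mean level of the list was 8.18 to 8.38 in sorted LT-HSC, 7.45 to 7.61 in sorted GMP and 6.88 to 7.10 in the lines. Feedback inhibitors of the MAP kinase pathway fell in 6 of 11 and rose in none, among them Spred2 (-0.82 ± 0.14), Spry2 (-0.73 ± 0.14) and Dusp6 (-0.69 ± 0.17). Spred2 and Dusp6 differed by -0.50 and -0.45 at 48 h.

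Inflammatory genes went both ways, with 5 higher and 3 lower of 17 (18.0% and 17.0% of all genes, list median 0.15). Il6, the cytokine interleukin 6, read 3.11, 3.28, 2.72 and 2.96 in sorted LT-HSC and 8.34, 8.08 and 8.81 in the lines (5.39 ± 0.61, 41.9-fold, adjusted p = 9.64e-08). The chemokine Ccl3 read 5.73, 5.87, 5.72 and 5.19 against a mean of 9.69 in the lines (4.06 ± 0.31), and Il1b rose by 2.28 ± 0.38 (1.51 at 48 h). In the other direction, Nfkbiz, an NF-kB cofactor, read 9.11, 9.05, 9.22 and 9.14 against 6.73, 6.81 and 6.47 (-2.46 ± 0.14, adjusted p = 3.94e-13), and Ptgs2, cyclooxygenase 2, fell by 2.37 ± 0.25. Targets of p53 were also mixed, 5 higher and 4 lower of 13 (18.0% and 17.0% of all genes). They ran from Perp (1.16 ± 0.26), a protein of cell contacts and apoptosis, to Sesn1 (-1.07 ± 0.10), a stress sensor.

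Adhesion and cytokine receptor genes were more often higher than lower. Leukocyte integrins and adhesion genes rose in 12 of 20 and fell in 3 (median 0.82). Itgam (CD11b) read 4.75, 4.76, 5.35 and 4.66 against 9.31, 9.14 and 8.72 (4.18 ± 0.19, adjusted p = 1.44e-14), and its partner Itgb2 rose by 2.39 ± 0.14. The chemokine receptor Ccr1 rose by 4.56 ± 0.33. Haematopoietic cytokine receptors rose in 14 of 20 and fell in 1, Kit. Csf2rb, the common beta chain for GM-CSF, IL-3 and IL-5, read 6.24, 5.58, 6.49 and 5.84 against 9.74, 9.55 and 9.87 (3.68 ± 0.19, adjusted p = 9.22e-14). Its close copy Csf2rb2 rose by 3.12 ± 0.27, and how far the probes separate the pair was not tested. Csf1r, the receptor for macrophage colony-stimulating factor, read 4.77, 5.63, 5.17 and 5.19 against 8.73, 8.49 and 7.78 (3.14 ± 0.28).

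Genes of the epithelial-mesenchymal transition (EMT), which the study's title names, went both ways, 9 higher and 9 lower of 22 (median -0.04). With the 48 h arrays of the lines 5 were higher, and in a fit of only the groups compared 5 were lower. Lgals1, galectin 1, read 8.02, 9.0, 8.60 and 8.07 in sorted cells and 11.86, 11.79 and 11.80 in the lines (3.40 ± 0.15, adjusted p = 9.95e-15). Tgfbi, a matrix protein induced by TGF-beta, rose by 2.79 ± 0.25 and fibronectin, Fn1, by 2.35 ± 0.40. At 48 h Tgfbi differed by 1.64 and Fn1 by 0.99, which was not called (adjusted p = 0.0595, limma). Cdh1, E-cadherin, which EMT normally lowers, read 5.98, 5.72, 5.82 and 6.06 against 8.18, 8.15 and 8.25 (2.30 ± 0.17, adjusted p = 6.36e-11). Zeb1, the repressor of Cdh1 and a driver of EMT, moved the opposite way, from 8.37, 8.32, 8.55 and 8.50 to 6.76, 6.74 and 6.81 (-1.66 ± 0.14, adjusted p = 1e-09). Tcf4, another EMT factor, fell by 0.50 ± 0.11. With dox the means were 7.01 for Cdh1, 7.38 for Zeb1 and 8.16 for Tcf4, against 8.20, 6.77 and 7.70 without.

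Polycomb genes, which keep developmental genes silent, fell in 7 of 17 and rose in 1 (17.0% and 18.0% of all genes, list median -0.17). The largest falls were those of Pcgf2 (-1.07 ± 0.15) and Phc1 (-0.91 ± 0.12). Bmi1, needed for stem cell self-renewal, read 8.30, 8.06, 8.54 and 8.10 against 7.71, 8.38 and 7.53 (-0.38 ± 0.14, adjusted p = 0.0425), and line B6-3 lay within the sorted range. The call for Bmi1 was lost without sorted replicate 1 (adjusted p = 0.08) or 3 (0.153) and without B6-2 (0.191) or B6-1 (0.315), and with the 48 h arrays the difference was 0.03. In a fit of only the groups compared, 4 polycomb genes fell.

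The same difference (line without dox minus sorted cell) was taken for GMP-derived lines against sorted GMP (n = 3 and 4) and subtracted. Such a gap holds differences between the 2 sorted cell types as well as those between the lines. The GMP-derived lines were measured at 48 h and the LT-HSC-derived lines at 72 h. Counts of genes with a gap were therefore also taken with the 48 h arrays of the latter, over all genes and by list. The counts among the 831 and 606 genes below were taken only with the 72 h arrays. The 2 comparisons share no arrays. The line names B6-2 and B6-3 occur in both origins, and the titles do not say whether such lines share a donor. The main fit did not pair them. Of 19937 genes, 4307 differed between them (21.6%), 2386 higher (12%) and 1921 lower (9.64%) in the LT-HSC comparison. With both origins at 48 h the counts were 2457 higher and 2026 lower. In the GMP comparison itself 23.5% of genes were called, 2163 higher (10.8%) and 2527 lower (12.7%). Of the 831 genes at least 2-fold higher in the LT-HSC comparison, 471 were also called higher in the GMP one (56.7% of the former and 21.8% of the latter), and 601 (72.3%) differed in size between the comparisons. Of the 606 genes lower by as much, 242 were also lower there (39.9%, and 9.58% of the 2527), and 517 (85.3%) differed in size. Both sets of genes were picked by a large LT-HSC difference, which is also part of the gap. That choice alone raises the 72.3% and 85.3%, so they cannot be read against the 21.6% of all genes.

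For Cpa3 the difference was 5.03 in the LT-HSC comparison and -1.86 in the GMP one, a gap of 6.89 ± 0.98 (adjusted p = 9.16e-06). Mcpt8 gave a gap of 6.59 ± 0.70, Prg2 of 6.41 ± 1.13, Ctsg of 5.60 ± 0.24, F13a1 of 5.56 ± 0.42 and Atp8b4 of 5.45 ± 0.15. Ctsg and Atp8b4 had means of 11.48 and 11.05 in sorted GMP beside those of the LT-HSC-derived lines (means 10.91 and 10.68). On the other side Bex1 had a gap of -4.86 ± 0.43, Mmrn1 of -4.85 ± 0.13, Myct1 of -4.73 ± 0.42, Gimap6 of -4.57 ± 0.18, Mecom of -4.26 ± 0.32 and Emcn of -4.03 ± 0.10. Mecom had a mean of 4.55 in sorted GMP and in the GMP-derived lines alike, and Cpa3 fell there from 7.32 to 5.46. At 48 h in both origins all 12 gaps were called, with values from 4.98 for F13a1 to 6.75 for Mcpt8 and from -3.83 for Mecom to -4.92 for Mmrn1.

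**Figure D4:**
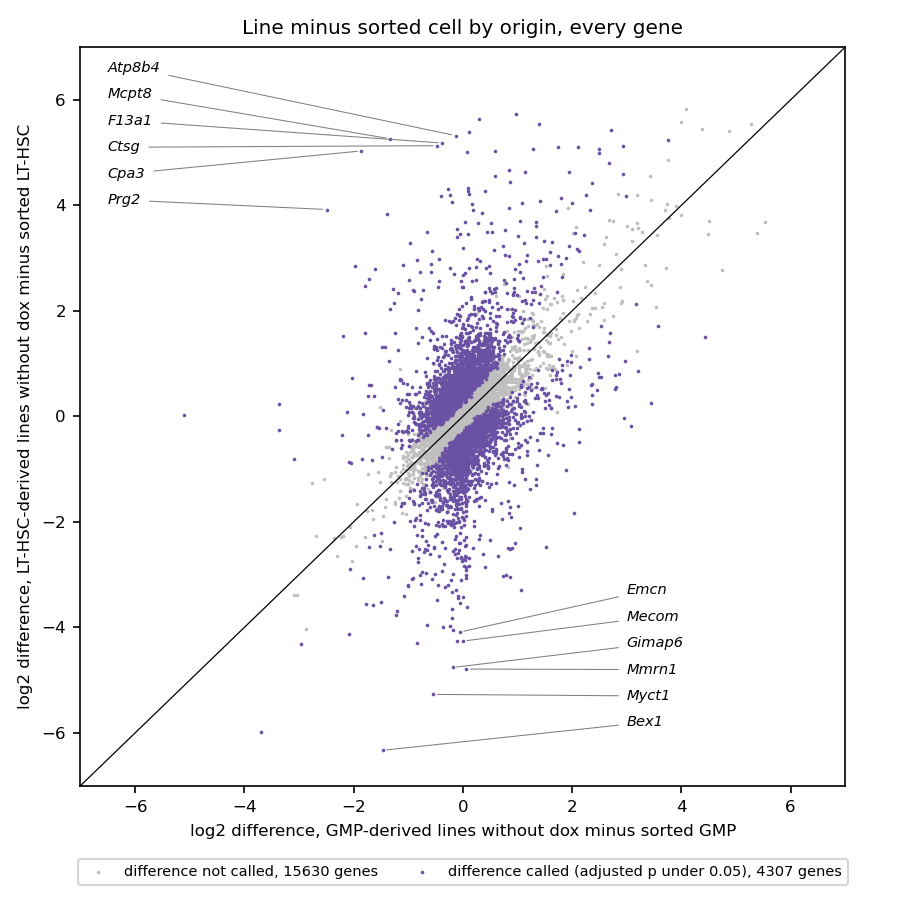
Log2 difference of every gene for the lines of LT-HSC origin without dox (72 h) minus sorted LT-HSC (vertical axis) against GMP-derived lines without dox at 48 h minus sorted GMP (horizontal axis), 1 point per gene; the line marks equal differences and purple points are the 4307 genes whose differences were called unlike. The 12 labelled genes are the 6 widest gaps in each direction.

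By list, primary granule genes had 13 of 14 members with a larger difference in the LT-HSC comparison, MHC class II genes 8 of 8, mitosis genes 21 of 23 and respiratory chain genes 16 of 19 (12% of all genes). Stem cell transcription factors had 14 of 19 and GIMAP genes 7 of 8 with a lower one (9.64% of all genes). The sorted cells themselves differed: mean levels in sorted GMP and sorted LT-HSC were 9.96 to 10.16 and 6.19 to 6.58 for primary granule genes. They were 8.95 to 9.05 and 7.86 to 8.26 for mitosis genes, and 5.96 to 6.2 and 6.36 to 6.49 for MHC class II genes. Late neutrophil genes were called higher in 17 of 20 in either comparison (medians 3.20 and 2.78), and cholesterol genes in 14 and 15 of 16 (medians 1.66 and 1.40). Within these lists some members differed all the same: 6 late neutrophil genes had a higher and 2 a lower difference in the LT-HSC comparison, and 2 cholesterol genes a higher and 1 a lower one. Glycolysis and hypoxia genes had 9 higher and 1 lower of 19, and immediate early genes 0 higher and 6 lower of 18. At 48 h in both origins MHC class II genes had 4 of 8 higher in place of 8, late neutrophil genes 3 higher and 3 lower, immediate early genes 1 higher and 9 lower, and nucleolar genes 16 of 20 higher. Primary granule genes then had 12 of 14 higher, mitosis genes 21 of 23 and respiratory chain genes 16 of 19. Stem cell transcription factors had 14 of 19 lower and GIMAP genes 7 of 8. Glycolysis and hypoxia genes had 8 higher and 1 lower, and cholesterol genes 2 higher and 1 lower. With the LT-HSC-derived lines at 72 h the gap for Hprt was -0.07 with a 95% interval from -0.55 to 0.41. That for Zeb1 was -0.41 (-0.82 to 0.01), and neither was called. With both origins at 48 h the gap for Hprt was 0.5 ± 0.23 (adjusted p = 0.141, limma), above that interval. That for Zeb1 was then -0.02 ± 0.2 (adjusted p = 0.967, limma). Nucleolar genes fell in 18 of 20 in the GMP comparison and in 9 of 20 in the LT-HSC comparison at 72 h. Of the 20, 10 were then called with a higher difference in the LT-HSC comparison.

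The 3 lines did not agree on every gene. Genes were ranked by their range over the lines at 72 h, a choice made after their values were seen and without a test, since each line is 1 array at each time. Stfa3 read 11.20 in B6-2, 10.05 in B6-3 and 6.27 in B6-1, and 9.03, 8.56 and 4.33 in the same lines at 48 h. Ltf, lactoferrin, read 10.80, 10.34 and 7.92 at 72 h and 9.57, 9.54 and 7.24 at 48 h. Hpgd, which breaks down prostaglandins, read 9.82, 10.02 and 6.04, and 9.71, 9.92 and 5.97 at 48 h. B6-1 was thus the low line for all 3 genes at both times. It was the high line for Fcer1a, the alpha chain of the IgE receptor (6.93, 6.55 and 8.95 at 72 h and 6.43, 6.09 and 9.28 at 48 h), for Thy1 (8.56, 8.47 and 10.81) and for the eosinophil attractant Ccl24 (8.57, 9.51 and 10.57). Not every gene kept this order: Tfb2m, a mitochondrial transcription factor, read 8.14, 7.89 and 5.90 at 72 h and 8.18, 7.49 and 8.28 at 48 h, and Klrd1, an NK cell receptor chain, 6.97, 7.51 and 5.12 and then 5.44, 5.85 and 5.49. The mean of the late neutrophil list was 9.29, 8.81 and 7.97 in B6-2, B6-3 and B6-1, and that of the mast cell and basophil list 7.08, 6.95 and 7.70. B6-1 also had the widest residual spread over genes (0.191, against 0.129 or more in the other lines), and its part in these values was not tested.

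**Figure D5:**
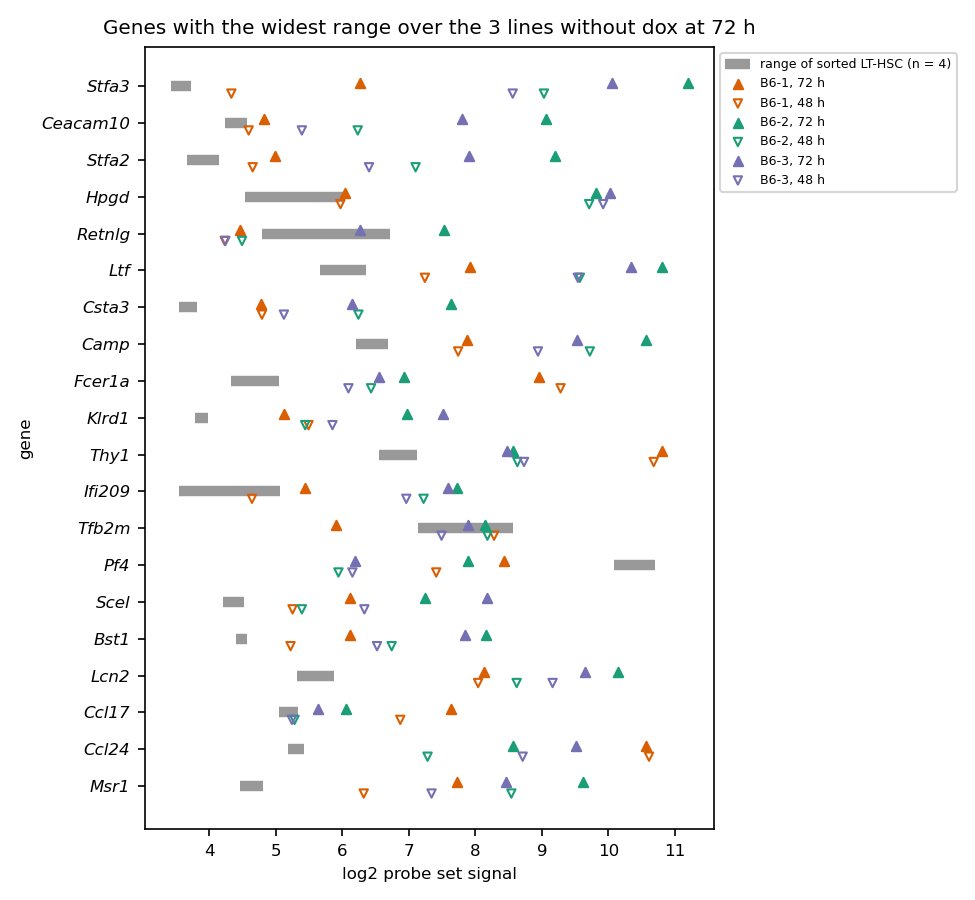
Log2 probe set signal of the 20 genes with the widest range over the 3 lines without dox at 72 h; filled triangles are 72 h, open triangles 48 h, colours are lines, and the grey bar is the range of the 4 sorted LT-HSC arrays. B6-1 keeps its place at the low end for Stfa3, Ltf, Camp and Hpgd and at the high end for Fcer1a, Thy1 and Ccl24 at both times, while for Tfb2m and Klrd1 it is the lowest line at 72 h and not at 48 h.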

How the data were processed

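Values were the log2 probe set signals deposited by the authors for 34760 probe sets on 26 Affymetrix gene arrays in 8 groups. Per the labels' protocols, RNA was extracted with PicoPure and amplified with the NuGen Ovation Pico kit, and the submitters' processing notes name limma and R 3.1.1. How signals were corrected, summarised and normalized before that is not stated in the labels or files. Array medians were 5.81 to 5.907, and no 2 arrays held identical values.

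Gene symbols came from the platform annotation, updated through RefSeq (21553 probe sets matched). Genes were read only from probe sets with exactly 1 symbol, which dropped 1321 probe sets with several and 11799 without any, and each gene was represented by its brightest probe set (19937 genes). Group means of all 26 arrays were fitted with limma 3.58.1 (lmFit, eBayes) in R 4.3.3, whose moderated test gave every adjusted p above. The fit was tested on simulated data. Of 696 list entries in 40 lists, 630 were measured.

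Named genes were the 12 largest called changes in each direction with separate arrays and the higher mean above 5.86, the 6 widest gaps between origins in each direction, up to 6 members per list with the largest differences (any member of lists with at most 12), and a few fixed genes such as Mecom, Hoxa9 and Hprt; some were left out. Slc2a1, Rsad2, Ifit3 and Irgm1 were named because their promoter windows hold a motif, and genes that differ between lines were chosen by their values. Cdkn2a, Cdkn2b, Cdkn2c, Cdkn2d and Cdkn1c were named beside Cdkn1b with their values known. The comparison, members and lists were chosen with earlier results of these data known. Replicate numbers did not pair line and sorted arrays: deviations of same-numbered ones correlated at -0.088, -0.113 and -0.314.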

Additional observations from a re-analysis of the deposited data

Results flagged for a closer look

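Among 178 of the genes named in the text, 11 had a sorted LT-HSC array far from the other 3, where chance flags about 1 in 20 groups. The distant values were 6.52 for Ctsg, 8.03 for Grb10, 9.32 for Hlf, 7.13 for Hoxa10, 9.84 for Hprt, 5.35 for Itgam, 10.19 for Jun, 9.94 for Kmt2a, 6.83 for Slamf1, 7.09 for Tek and 6.87 for Zfp521. In each of these genes all sorted arrays lay on the same side of the lines.

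The difference between line and sorted cell was unlike for the LT-HSC and GMP origins in 4307 genes by the limma interaction term, of which the 6 widest gaps in each direction are given. On the log2 scale the gap was 6.89 for Cpa3, 6.59 for Mcpt8, 6.41 for Prg2, 5.60 for Ctsg, 5.56 for F13a1 and 5.45 for Atp8b4. It was -4.86 for Bex1, -4.85 for Mmrn1, -4.73 for Myct1, -4.57 for Gimap6, -4.26 for Mecom and -4.03 for Emcn. With both origins at 48 h these 12 gaps ran from 4.98 to 6.75 and from -4.92 to -3.83, and all were called.

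Outside the genes analysed, 13120 probe sets have no symbol or several. Of these, 1377 were called higher and 1727 lower in the lines (23.7%).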

How the results depend on the processing

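The counts over all genes stayed within 1.5 times the main count under all settings tried except 2 kinds. With the replicate block and only the groups compared, 2350 genes were called higher and 2024 lower, and requiring at least a 2-fold difference left 831 and 606, fewer by construction. The replicate block over all arrays gave 3530 and 3383, so it moved no count over all genes by that much. Leaving out 1 replicate at a time gave 3140 to 3509 higher and 3028 to 3386 lower. Median centring gave 3985 and 3078, quantile normalization 3604 and 3717, and only the groups compared 2924 and 2660.

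Of the list counts under an alternative, 1348 stayed within 1.5 times and 92 did not, and the cause was not tested. With the 48 h arrays 15 replication genes were higher and 0 lower. Respiratory chain genes called higher went from 17 to 10 with the replicate block and only the groups compared, and GIMAP genes called lower from 8 to 5 when dim genes were left out, where fewer genes were tested. Among named genes, 2 differences changed sign, both with the 48 h arrays: Bmi1 (0.03) and Cd3d (-0.01). Fn1 (0.99), Ciita (0.18) and Prim1 (-0.21) lost their calls there. Whether signals of dim genes lie above the arrays' background was not analysed here, and their differences may be understated.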
